A study of Arabidopsis thaliana with 15 samples.

Results

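The roots of Arabidopsis thaliana seedlings held in Rose Bengal (RB) for 3 h were compared, gene by gene, with roots of seedlings held in water. The libraries were chosen by their treatment and time labels, 3 of RB 3 h and 3 of water, which made 6 of the 15 libraries of the series. All seedlings were wild type of the ecotype Columbia-0, 7 days old, grown in 16 h of light and 8 h of dark at 21 °C, with 30 to 50 seedlings pooled in a replicate. RB was given at 10 µM in aqueous solution. The water libraries are labelled 1 h, while their titles say 0. RB treatment and the longer time in solution therefore changed together and cannot be told apart in this comparison. The sources used here do not state how the seedlings were lit in the solution. Roots were cut from shoots at the end, and their RNA was read near the 3′ ends of transcripts with MARS-seq. The roots of RB at 1 h and at 2 h, 3 libraries each, are used below to place the 3 h values in time. The remaining group, RB with added H2O2, entered the fit and is not described.

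Rose Bengal is a xanthene dye that, when lit, passes its energy to oxygen and forms singlet oxygen, a short-lived reactive oxygen species. In plants, singlet oxygen oxidizes lipids and proteins close to where it is made and is known to change nuclear gene expression through several signalling routes. Among the responses known from leaves and cell cultures are stress transcription factors, chaperones that hold unfolding proteins, and enzymes that couple reactive carbonyls and foreign compounds to glutathione or sugars. A root also carries transporters and wall proteins at its surface, through which it takes up water and minerals and grows root hairs.

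Library totals ran from 897728 to 1897364 counts in water and from 1364525 to 4389349 counts in RB 3 h, so 1 count stood for 0.213 to 1.19 CPM (each count as a share of its TMM-scaled library total). The 3 replicates of a group spread more than counting error, with a biological coefficient of variation of 20.6% over the series. The first principal component held 42.5% of the variance and placed water at -74.6 to -60.2 and RB 3 h at 34.0 to 42.5. Water replicate a, the shallowest library, stood apart from the other water libraries on component 4, at -34.4 against 12.6 and 12.9. The mitochondrial genome took 3.3 to 3.91% of counts in water and 1.63 to 2.69% in RB 3 h. Its ribosomal RNA locus ATMG00020 alone took 2.845 to 3.47% in water and 1.27 to 2.22% in RB 3 h. The 20 markers of shoot green tissue took 0.0530 to 0.0779% in water and 0.0341 to 0.0393% in RB 3 h, and of the 10 endodermis markers, which belong to the root, 8 were abundant enough to be tested. In bulk RNA, fewer cells of a type and less RNA per cell cannot be told apart. The part of these shares in the results was not tested.

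After 3 h in RB, a large share of the measured root transcripts differed from water, and rises and falls were nearly balanced in number. Most of the listed and tested cytosolic small heat shock proteins, glutathione transferases and other detoxification enzymes, stress transcription factors and genes of sulfate assimilation were higher. Most of the tested aquaporins and root hair genes were lower, as were the nitrate transporter NRT2:1, the phosphate importers PHT1;1 and PHT1;4, the endoplasmic reticulum chaperones CNX1 and BIP2 and the chalcone synthase TT4. Of 9891 genes tested, 3238 (32.7%) were called by edgeR's quasi-likelihood test with Benjamini-Hochberg adjustment and a threshold of 0.05, 1599 higher (16.2%) and 1639 lower (16.6%). At least 2-fold changes were seen in 1192 of the higher and 945 of the lower genes, at least 4-fold in 509 and 282, and at least 16-fold in 139 and 38. The 3 CPM values of each side did not overlap in 3179 of the called genes and in 5036 (50.9%) of all genes tested.

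The genes called higher together took 6.90 to 7.77% of the counts of a water library and 23.7 to 25.6% of an RB 3 h library. Those called lower took 45.8 to 49.4% in water and 25 to 27.4% in RB 3 h. With library totals and no further scaling, the calls were 2029 higher and 1226 lower, and the median log2 fold change over all genes was 0.19 in place of 0.01. The share of genes called rose with abundance, from 19.6% in the lowest to 46.4% in the highest of 4 equal groups by mean CPM. Counts per gene are relative to all other transcripts in a library, so a lower value is a lower share of the RNA.

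**Figure D1:**
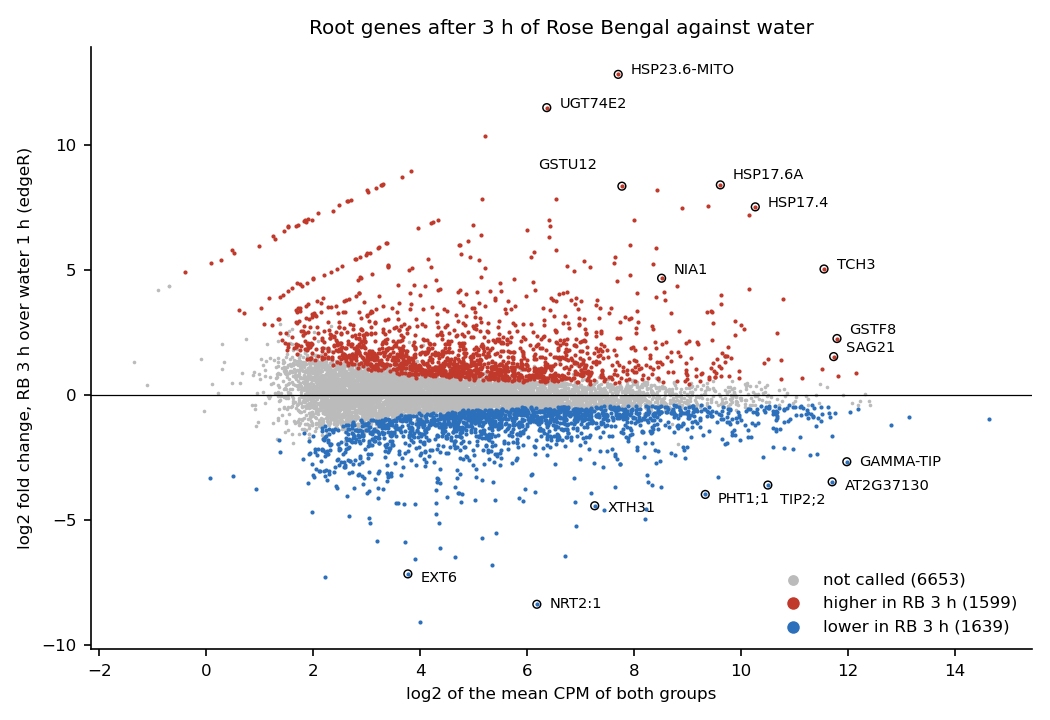
Each point is 1 of the 9891 genes tested, with the mean CPM of both groups on a log2 scale on the horizontal axis and the log2 fold change of RB 3 h over water on the vertical axis; red marks the 1599 genes called higher, blue the 1639 called lower and grey the genes not called. The labelled points show that the largest rises, such as HSP23.6-MITO and UGT74E2, started from no counts in water, while GAMMA-TIP and the peroxidase AT2G37130 were abundant genes that were lower.

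The largest rises in CPM were those of a calcium sensor, a glutathione transferase, chaperones and a polyubiquitin gene. TCH3 (AT2G41100), a calmodulin-like calcium-binding protein first found as touch-induced, stood at 178, 224 and 135 CPM in water and at 5311, 5764 and 6422 CPM in RB 3 h. Every RB library was far above every water library, and the log2 fold change was 5.03 (SE 0.21, adjusted p = 4.42e-14). GSTF8 (AT2G47730), a phi class glutathione transferase, rose from 1237 ± 84.4 to 5874 ± 771 CPM (mean ± SD, n = 3 libraries per group here and below; log2 fold change 2.25, SE 0.17, adjusted p = 6.07e-10). SAG21 (AT4G02380), a late embryogenesis abundant protein of mitochondria induced by oxidants, rose from 1758 ± 209 to 5055 ± 907 CPM. UBQ10 (AT4G05320), a polyubiquitin gene often used as a reference gene, rose from 3203 ± 428 to 5844 ± 520.2 CPM (log2 fold change 0.87, adjusted p = 0.00114).

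The largest falls in CPM were those of a peroxidase, vacuolar aquaporins and genes of general protein synthesis. AT2G37130, a class III peroxidase that acts in the cell wall, stood at 6358, 5796 and 6245 CPM in water and at 472, 618 and 552 CPM in RB 3 h (log2 fold change -3.49, SE 0.29, adjusted p = 1.24e-08), with no overlap. AT5G60390, which encodes the translation elongation factor EF-1 alpha and has near-identical copies in the genome, fell from 10031 ± 518 to 4344 ± 659 CPM. HSC70-1 (AT5G02500), the constitutive cytosolic HSP70, fell from 11701 ± 629.8 to 6304 ± 723 CPM (-0.89, SE 0.18, adjusted p = 0.00041). ATMG00020, the mitochondrial 26S ribosomal RNA locus, stood at 37199, 33784 and 30765 CPM in water and at 11909, 18157 and 21696 CPM in RB 3 h. Its groups did not overlap, and its log2 fold change was -0.98 (adjusted p = 0.0263), but the call was lost without water replicate a (adjusted p = 0.0777), water replicate b (0.0563), RB 3 h replicate a (0.103) or RB 3 h replicate b (0.0566).

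The cytosolic small heat shock proteins, ATP-independent chaperones that bind unfolding proteins, had the largest median rise of the 42 lists. Of the 9 members tested, 8 were higher and none lower, with a median log2 fold change of 7.45 against 0.01 over all genes. HSP17.4 (AT3G46230) had 16.7, 11.2 and 13.1 CPM in the water libraries and 2268, 2548 and 2543 CPM in the RB 3 h libraries (log2 fold change 7.51, SE 0.28, adjusted p = 4.29e-15). The RB libraries were close to each other and none came near a water library. HSP17.6A (AT5G12030) went from 7.16, 1.49 and 5.70 CPM to 1679, 1566 and 1446 CPM (8.39, SE 0.36, adjusted p = 7.12e-14). Its neighbour HSP17.6II (AT5G12020) rose from 2.39 ± 1.47 to 683 ± 63.6 CPM, and AT1G53540 from 5.47 ± 2.2 to 946 ± 98.1 CPM. Reads of such near-identical genes may have been shared or dropped in counting, so values of single members are uncertain. The summed level of the 11 members in the table rose from 95.7 ± 4.56 to 9818 ± 279 CPM, which was 103-fold. HSP18.2 (AT5G59720) was raised less, from 8.76 ± 2.64 to 88.5 ± 8.54 CPM, and AT5G47600, annotated as an HSP20-like protein, was the 1 member not called, at 28.6 ± 3.11 and 33.0 ± 5.03 CPM.

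All 5 small heat shock proteins of organelles that could be tested were higher as well. For every member except AT5G51440 this direction was fixed, since those members had no count in water and passed the filter through other groups. With only the libraries of the 2 groups compared, 3 members were tested and 3 were higher. That direction was again fixed for those other than AT5G51440. HSP23.6-MITO (AT4G25200), a chaperone of the mitochondrial matrix, had no count in any water library and 359.9, 479 and 413 CPM in the RB 3 h libraries, at least 522-fold higher with 3 counts over the group as the floor. ATHSP22.0 (AT4G10250), of the endoplasmic reticulum, also had no count in water and stood at 33.9, 25.2 and 26.5 CPM in RB 3 h, at least 39.9-fold higher. HSP21 (AT4G27670), of plastids, had no count in water and 5.79 ± 0.927 CPM in RB 3 h. AT5G51440, a second mitochondrial member, was measured in all libraries and rose from 16.8 ± 1.13 to 641 ± 87.8 CPM (5.24, SE 0.31, adjusted p = 1.08e-11). Members of mitochondria, plastids and the endoplasmic reticulum were among the higher genes. Only AT5G51440, of mitochondria, could have been called in either direction.

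Among HSP70, HSP90, HSP101 and co-chaperones, 18 of 24 were higher and 2 lower, with a median log2 fold change of 2.14. HSP70T-2 (AT2G32120), among the higher members, had no count in any water library and could only be called higher. HSP101 (AT1G74310), the disaggregase needed for acquired heat tolerance, stood at 10.7, 12 and 11.4 CPM in water and at 506, 726 and 776 CPM in RB 3 h (5.86, SE 0.30, adjusted p = 7.28e-13). HSP90.1 (AT5G52640), the inducible cytosolic HSP90, rose from 8.21 ± 1.95 to 281 ± 45.2 CPM, and HSP70 (AT3G12580), an inducible HSP70, from 229 ± 15.8 to 3285 ± 177 CPM. BAG6 (AT2G46240), a co-chaperone, rose from 1.81 ± 1.87 to 167 ± 25.8 CPM. The 2 lower members were HSC70-1, described above, and mtHsc70-1 (AT4G37910), the mitochondrial import HSP70, at 667 ± 98.2 and 303 ± 46.2 CPM. Because HSC70-1 is so abundant, the summed level of the whole list was 1.09-fold that of water while its inducible members rose. Of the constitutive HSP90 genes, HSP81-2 was called higher, at 720 CPM against 429 CPM in water, and HSP81-3 was not called, at 334 and 311 CPM.

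The transcription factors that bind heat shock elements followed the same direction, with 8 of 10 tested heat shock factors higher and 1 lower (median 1.83). HSFA2 (AT2G26150), the amplifier of the heat response, had 1 count over the water libraries and 38.8, 39.3 and 33.7 CPM in the RB 3 h libraries, a ratio of 149.5 with a 95% exact counting interval of 26.6 to 5923. HSFB2A (AT5G62020), a repressor-type factor, rose from 17.9 ± 4.11 to 163 ± 39.5 CPM, and HSF4 (AT4G36990, also HSFB1) from 89.2 ± 4.97 to 304 ± 50.4 CPM. HSFC1 (AT3G24520) went the other way, from 48.9, 72.5 and 35.9 CPM to 10.4, 10.1 and 13.6 CPM (-2.22, SE 0.30, adjusted p = 4.13e-06), again with no overlap.

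Genes known as markers of singlet oxygen, mostly from the flu mutant and from dye treatments of leaves and cells, were higher without exception among those tested. All 13 tested were called higher, with a median log2 fold change of 3.33. AT1G19020, a small protein of unknown function, stood at 96.7, 102 and 81.5 CPM in water and at 1288, 1509 and 1655 CPM in RB 3 h (3.99, SE 0.20, adjusted p = 4.91e-13). AT3G28580, an AAA-type ATPase widely used as a singlet oxygen reporter, went from 7.16, 7.47 and 3.42 CPM to 104, 128 and 167 CPM (4.52, SE 0.36, adjusted p = 1.29e-09). Both genes were separated from water in every library. BCS1 (AT3G50930), an ATPase of the outer mitochondrial membrane, rose from 2.43 ± 0.964 to 67.8 ± 7.76 CPM, and BAP1 (AT3G61190), a membrane-associated inhibitor of cell death, from 77.6 ± 24.9 to 261 ± 60.3 CPM. Several of the 13 also stand in other lists given below, so their counts are not independent.

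Stress transcription factors of the ERF, WRKY, zinc finger and NAC families rose in each of these families, with few members lower. Of the ERF, CBF and DREB factors, 14 of 23 were higher and 1 lower (median 1.63). ERF6 (AT4G17490), an activator of oxidative stress genes, stood at 116, 143 and 99.7 CPM in water and at 1144, 976 and 1473 CPM in RB 3 h (3.33, SE 0.24, adjusted p = 1.74e-10). ERF-1 (AT4G17500) rose from 214 ± 33.0 to 1675 ± 445 CPM and its relative ERF2 (AT5G47220) from 14.8 ± 5.74 to 226 ± 47.4 CPM. DREB19 (AT2G38340) had no count in water and 12.5 ± 2.49 CPM in RB 3 h, at least 16.1-fold higher. It could therefore only be called higher. The cold-response factors CBF1 and CBF2, in contrast, were not called, at 8.47 and 42.7 CPM in water and 6.15 and 30.7 CPM in RB 3 h. The call of the 1 lower member, ddf2, was lost without RB 3 h replicate b or c, and 2 were lower without RB 3 h replicate a.

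Of the WRKY, ZAT and AZF factors, 14 of 21 were higher and 2 lower (median 1.67). WRKY33 (AT2G38470), the main activator of camalexin synthesis, went from 34.6, 74.0 and 34.2 CPM to 506, 430.3 and 526 CPM (3.35, SE 0.28, adjusted p = 2.56e-09). RHL41 (AT5G59820, also ZAT12), a zinc finger factor of oxidative stress, rose from 173 ± 56.3 to 1246 ± 205 CPM, and AT3G46080, an uncharacterized zinc finger gene, from 1.07 ± 0.931 to 168 ± 8.97 CPM. The 2 lower genes were ZF1 and AT2G28200, at 17.2 and 35.9 CPM in water and 4.96 and 13.5 CPM in RB 3 h. Among the NAC factors of stress, 8 of 10 were higher and none lower (median 2.32). ATAF2 (AT5G08790) rose from 52.0 ± 4.36 to 711 ± 146 CPM, NAC032 (AT1G77450) from 20.7 ± 7.63 to 296 ± 80.1 CPM and NAC102 (AT5G63790) from 16.8 ± 5.51 to 394 ± 94.9 CPM.

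**Figure D2:**
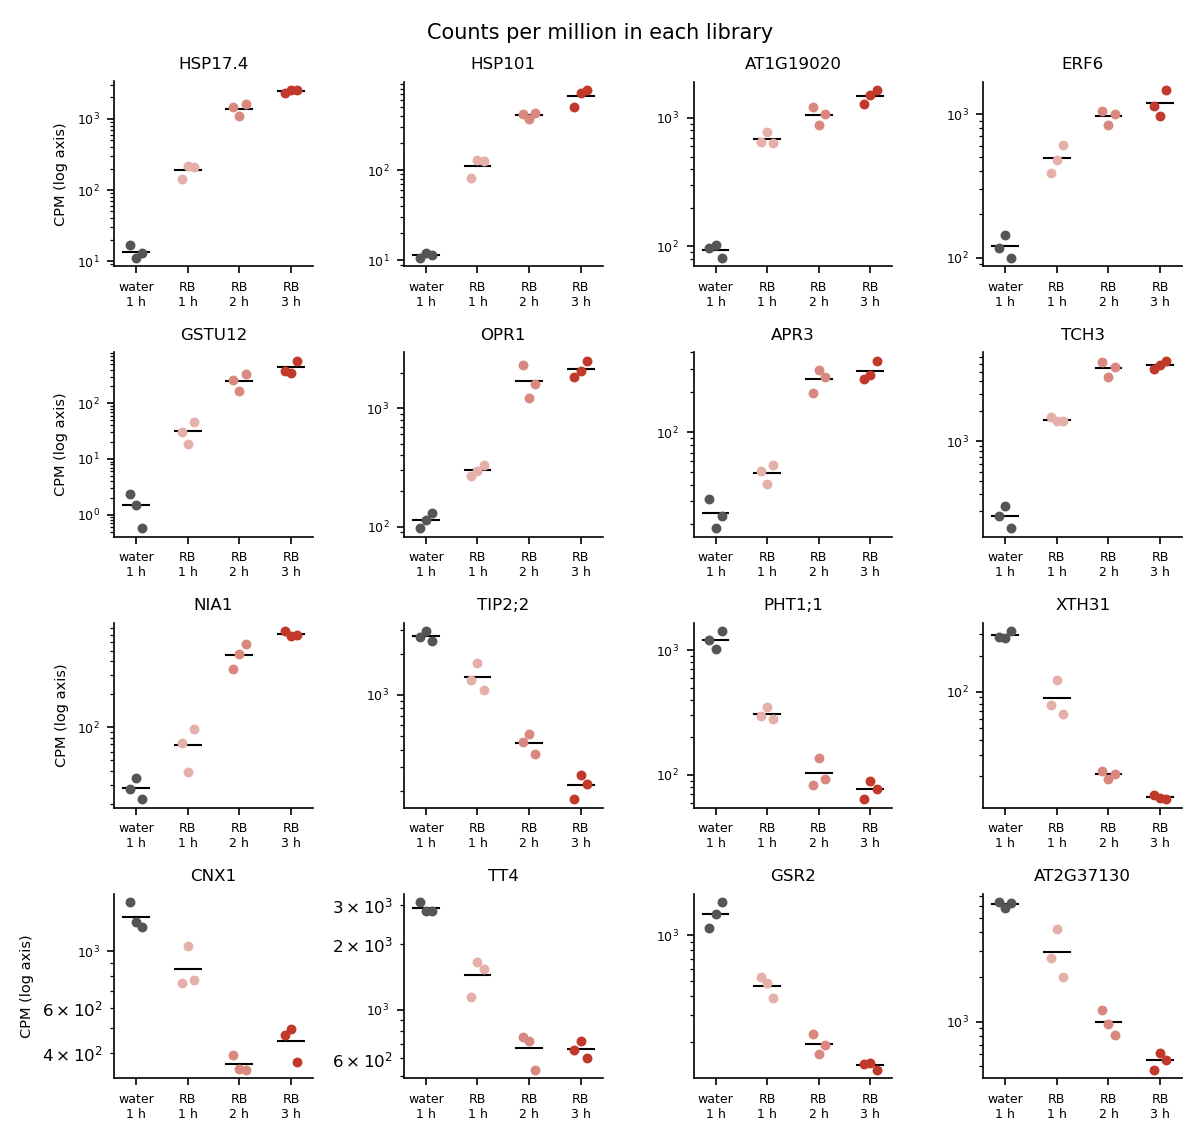
CPM of 16 genes on a log axis in the 3 libraries of water 1 h, RB 1 h, RB 2 h and RB 3 h; each point is 1 library and each horizontal line the mean of its group. HSP17.4 is at 11.2 to 16.7 CPM in water and at 2268 CPM or more in RB 3 h, while TIP2;2, PHT1;1 and XTH31 are lowest in RB 3 h.

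Enzymes of detoxification formed the second large group of rises. Of the tau and phi glutathione transferases, which couple reactive compounds to glutathione, 16 of 22 were higher and 3 lower (median log2 fold change 2.25), and the summed level of the 30 members in the table was 3.11-fold that of water. GSTU12 (AT1G69920) stood at 2.39, 1.49 and 0.570 CPM in water and at 378, 352 and 578 CPM in RB 3 h (8.34, SE 0.46, adjusted p = 9.42e-12). GSTU19 (AT1G78380) rose from 253 ± 20.8 to 1159.7 ± 199.6 CPM and GSTU7 (AT2G29420) from 26.2 ± 3.48 to 224 ± 42.0 CPM. GSTU25 (AT1G17180) had no count in water and 11.7, 28.7 and 35.8 CPM in RB 3 h, at least 26.3-fold higher. It could therefore only be called higher. With only the libraries of the 2 groups compared, 14 of 19 members tested were higher and 3 lower. The family was not uniform, since GSTU20 (AT1G78370), which sits beside GSTU19, was at 38.6 ± 16.7 CPM in water and 7.19 ± 2.97 CPM in RB 3 h. Several of these genes lie in tandem arrays of similar copies, and how reads matching more than 1 copy were counted is not stated in the labels or the table.

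Of the other detoxification enzymes and transporters, 13 of 16 were higher and 1 lower (median 3.40, or 3.19 with genes absent in water at their bound), 9.09-fold in summed level. UGT74E2 (AT1G05680), a glucosyltransferase acting on the auxin indole-3-butyric acid, had no count in water and 184, 158 and 153 CPM in RB 3 h, at least 226-fold higher. With no count in water it could only be called higher. UGT75B1 (AT1G05560), a glucosyltransferase known to act on p-aminobenzoate, had 3 counts over the water libraries and 184, 159.7 and 214 CPM in RB 3 h, a ratio of 240.4 (95% exact counting interval 82.1 to 1167). CYP81D8 (AT4G37370), a cytochrome P450 used as a marker of electrophile stress, stood at 0, 0.747 and 0.570 CPM in water and at 65.8, 61.0 and 62.3 CPM in RB 3 h, a ratio of 126 (34.7 to 1042). OPR1 (AT1G76680), an oxophytodienoate reductase that also reduces reactive carbonyls, rose from 113 ± 16.6 to 2146 ± 343 CPM (4.23, SE 0.23, adjusted p = 1.85e-12). UGT73B5 (AT2G15480), a flavonol glucosyltransferase of the oxidative stress response, rose from 52.7 ± 4.22 to 439 ± 140.3 CPM. The 1 lower member, UGT74F2, kept its call in only 1 of the 6 fits that left out a library.

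Sulfate assimilation, which supplies the cysteine of glutathione, was higher in most of its genes. Of the 18 genes tested, 13 were higher and none lower (median 1.61), and the summed level of the list was 3.81-fold that of water. APR3 (AT4G21990), an adenylylsulfate reductase at the controlling step, went from 31.0, 18.7 and 23.4 CPM to 252, 268 and 347 CPM (3.59, SE 0.24, adjusted p = 4.68e-11). SERAT2;1 (AT1G55920), a serine acetyltransferase of plastids, rose from 130.4 ± 27.2 to 1280.1 ± 451 CPM. The sulfur starvation genes LSU1 (AT3G49580) and LSU3 (AT3G49570) rose from 8.90 ± 6.14 to 384 ± 127 CPM and from 4.35 ± 3.28 to 104 ± 22.6 CPM. The root sulfate transporter SULTR1;2 was not called, at 14.6 CPM in water and 9.72 CPM in RB 3 h. GSH1 (AT4G23100), the first enzyme of glutathione synthesis, rose from 423 ± 61.0 to 1243 ± 94.0 CPM (1.56, SE 0.18, adjusted p = 4.41e-07).

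Most enzymes that scavenge peroxide and superoxide were not called. In that list, which also holds GSH1, 6 of 32 were higher and 3 lower (18.8% and 9.38%), shares near those over all genes, with a median of 0.19. The count of higher genes was 3 without water replicate a, water replicate c or RB 3 h replicate a, and the count of lower genes was 1 without water replicate a or b or without RB 3 h replicate a or b. CAT1 (AT1G20630) rose from 32.9 ± 8.86 to 79.2 ± 4.96 CPM while CAT3 (AT1G20620) fell from 1629 ± 561 to 748 ± 96.2 CPM, so 2 catalase genes moved in opposite directions. Cytosolic ascorbate peroxidase APX1 (AT1G07890) was at 1073, 1545 and 1472 CPM in water and at 1689, 2379.8 and 2223 CPM in RB 3 h. Its call (log2 fold change 0.62, adjusted p = 0.0119) was lost without water replicate a (0.0858) or RB 3 h replicate b (0.0657). Of the 4 respiratory burst oxidases, which make superoxide at the plasma membrane, RBOHD (AT5G47910) rose from 39.4, 44.1 and 36.5 CPM to 103, 99.3 and 142 CPM, and the other 3 were not called.

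Most genes known to be induced when mitochondrial respiration is disturbed were higher. The mitochondrial genome took a smaller share of counts, as given above, and most of that share was the 1 locus ATMG00020. Of 12 genes of that genome tested, 1 was higher, 1 lower (ATMG00020) and 10 not called. Of the 8 nuclear genes of the mitochondrial retrograde response tested, 7 were higher and none lower (median 3.00). AOX1A (AT3G22370), the alternative oxidase that bypasses the cytochrome chain, went from 13.1, 14.9 and 17.1 CPM to 304, 162 and 168 CPM (3.79, SE 0.40, adjusted p = 9.5e-07). The RB libraries lay far above water, and replicate a was the highest of them. NDB2 (AT4G05020), an external NADH dehydrogenase that works with it, rose from 37.2 ± 8.25 to 170.3 ± 12.6 CPM. AT5G51440 and BCS1, described above, belong to the same list.

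Tryptophan synthesis and the indolic defence compounds made from it were raised in parts. Of 29 genes, 17 were higher and 2 lower (median 1.11). PAD3 (AT3G26830), the last enzyme of camalexin synthesis, went from 2.39, 3.74 and 3.42 CPM to 69.9, 38.8 and 55.2 CPM (4.04, SE 0.37, adjusted p = 7.78e-09). MYB51 (AT1G18570), an activator of indole glucosinolate genes, rose from 8.08 ± 1.42 to 87.7 ± 14.7 CPM, whereas MYB34 (AT5G60890), which activates the same pathway in roots, was lower at 53.6 ± 24.8 CPM against 172 ± 6.33 CPM in water. ASA1 (AT5G05730), which starts tryptophan synthesis, rose from 68.0 ± 8.46 to 246 ± 10.7 CPM, and IGMT2 (AT1G21120), a methyltransferase of indole glucosinolates, from 4.37 ± 1.39 to 75.0 ± 22.1 CPM. CYP83B1, a central enzyme of indole glucosinolate synthesis, was not called, at 949 CPM in water and 948 CPM in RB 3 h.

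Most water channels were lower after RB. Of 19 aquaporins tested, 15 were lower and none higher (median log2 fold change -1.71), and the summed level of the 20 in the table fell to 0.257 of that in water. TIP2;2 (AT4G17340), a channel of the vacuolar membrane, stood at 2666, 2912 and 2472 CPM in water and at 174, 259 and 226 CPM in RB 3 h (-3.62, SE 0.25, adjusted p = 1.28e-10). GAMMA-TIP (AT2G36830) went from 7434, 6477 and 7053 CPM to 768, 1353 and 1146 CPM (-2.68, SE 0.25, adjusted p = 3.58e-08). In both, the highest RB library was well under the lowest water library. RD28 (AT2G37180), a plasma membrane channel, fell from 300.3 ± 45.4 to 41.5 ± 7.26 CPM, and PIP2;4 (AT5G60660) from 161 ± 20.3 to 24.1 ± 2.75 CPM. The exceptions included PIP1C (AT1G01620), at 1618 ± 48.5 and 1331 ± 103 CPM, and PIP3 (AT4G35100), at 47.1 ± 4.01 and 71.0 ± 7.70 CPM, neither of them called.

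Root hair genes had the largest median fall of the lists. Of 18 tested, 15 were lower and none higher (median -3.61), with 1 higher without water replicate b. LRL3 (AT5G58010), a basic helix-loop-helix factor of hair growth, stood at 77.6, 79.9 and 68.4 CPM in water and at 3.84, 10.6 and 7.16 CPM in RB 3 h (-3.49, SE 0.34, adjusted p = 2.54e-08). EXPA18 (AT1G62980), a hair-specific expansin, fell from 49.4 ± 13.8 to 3.68 ± 1.75 CPM, and XTH14 (AT4G25820), a xyloglucan enzyme, from 275 ± 26.8 to 18.4 ± 12.5 CPM. Some genes of the list were not called. RHD6, which promotes hair outgrowth, was at 11.4 CPM in water and 7.32 CPM in RB 3 h, CPC, which specifies hair cells, at 108 and 114 CPM, and the cellulose synthase-like gene CSLD3 at 29.2 and 45.8 CPM. GL2, which marks cells without hairs, was called lower, from 24.8 to 11.6 CPM.

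Extensins, glycoproteins that are crosslinked into the wall of growing hairs, included the genes that came closest to disappearing. EXT6 (AT2G24980) stood at 39.4, 18.7 and 23.4 CPM in water and at 0, 0.504 and 0 CPM in RB 3 h, a ratio of 203 of water over RB (95% exact counting interval 35.7 to 8111). HRGP1 (AT3G54590) went from 111, 63.5 and 65.5 CPM to 0.213, 1.01 and 1.43 CPM (-6.82, SE 0.97, adjusted p = 0.000114). EXT11, EXT13 and EXT10 were at 29.6, 18.0 and 39.8 CPM in water and at 0.239, 0.239 and 1.29 CPM in RB 3 h. Extensin genes share long repeats, so how reads divided among them is uncertain. AGP3 (AT4G40090), an arabinogalactan protein of the cell surface, fell from 334 ± 38.1 to 15 ± 8.00 CPM.

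Expansins and xyloglucan enzymes outside the hair list moved both ways, with 4 of 18 higher and 7 lower (median -0.69). These were 22.2% and 38.9%, beside 16.2% and 16.6% over all genes. The count of lower genes was 4 without water replicate c. XTH31 (AT3G44990), a xyloglucan enzyme of root walls, had 286, 279 and 318 CPM in water and 14.1, 13.1 and 12.9 CPM in RB 3 h (-4.44, SE 0.27, adjusted p = 9.78e-12). XTR6 (AT4G25810), TCH4 (AT5G57560) and XTH18 (AT4G30280) were higher, at 565 ± 34.3, 78.9 ± 25.4 and 240.1 ± 49.4 CPM against 84.4 ± 14.9, 5.62 ± 2.05 and 27.8 ± 17.0 CPM in water. The sum of the list, 1.28-fold that of water, hid this exchange. Of the cellulose synthase and tubulin genes, 10 of 21 were lower and none higher (median -0.51), or 6 without water replicate b or without RB 3 h replicate a. CESA1 (AT4G32410), a subunit of primary wall cellulose synthase, fell from 204 ± 11.3 to 94.8 ± 1.83 CPM and TUA2 (AT1G50010), an alpha tubulin with close copies, from 768 ± 23.4 to 314 ± 73.3 CPM.

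**Figure D3:**
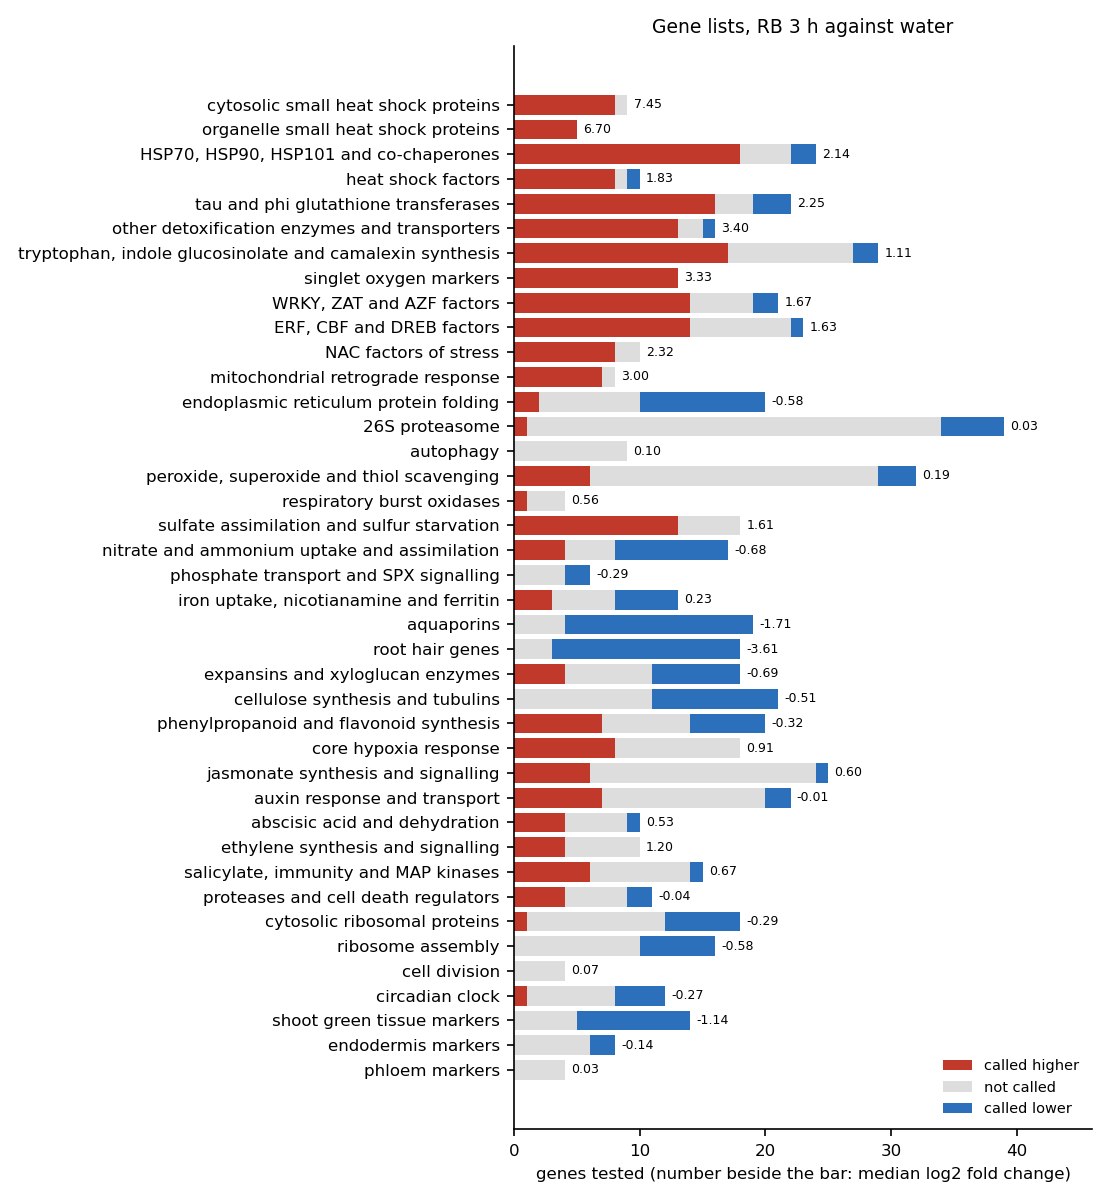
For each gene list with at least 4 members tested, the bar shows the number of tested members called higher (red), not called (grey) and called lower (blue) in RB 3 h against water, with the median log2 fold change of the list beside it. The lists of small heat shock proteins, singlet oxygen markers and NAC factors hold no lower gene, and those of aquaporins and root hair genes no higher one. Members with no count in water, as most of the small heat shock proteins of organelles, could not be called lower.

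Nitrogen genes were called in both directions. Of 17 tested, 4 were higher and 9 lower (23.5% and 52.9%, median -0.68), beside 16.2% and 16.6% over all genes. NRT2:1 (AT1G08090), the main high-affinity nitrate transporter of roots, stood at 148, 149 and 137 CPM in water and at 0.213, 1.01 and 0 CPM in RB 3 h, where it had 3 counts in all. The ratio of water over RB was 387 (95% exact counting interval 131.7 to 1881). NIA1 (AT1G77760), a nitrate reductase, rose in contrast from 27.4, 34.4 and 22.2 CPM to 749, 674 and 691 CPM (4.66, SE 0.32, adjusted p = 1.98e-10), and the second nitrate reductase, NIA2 (AT1G37130), from 216 ± 23.7 to 938 ± 158 CPM. GSR2 (AT1G66200), a cytosolic glutamine synthetase, fell from 1377 ± 263 to 141 ± 8.06 CPM (-3.29, SE 0.21, adjusted p = 3.09e-11). The ammonium transporters also moved both ways, with AMT1;3 at 52.4 ± 11.1 CPM in water and 3.05 ± 2.18 CPM in RB 3 h and AMT2 raised from 26.3 to 107 CPM.

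The abundant phosphate importers were lower, and iron genes were called in both directions. PHT1;1 (AT5G43350), the major phosphate importer of roots, stood at 1203, 1026 and 1411 CPM in water and at 63.9, 88.7 and 77.4 CPM in RB 3 h (-3.99, SE 0.29, adjusted p = 7.72e-10). PHT1;4 (AT2G38940) fell from 121 ± 24.8 to 13.1 ± 0.511 CPM. The other 4 phosphate genes tested, among them the starvation regulator PHR1 and the xylem loader PHO1, were not called, so 2 of 6 were lower and none higher (median -0.29). Of the iron genes, 3 of 13 were higher and 5 lower (23.1% and 38.5%, median 0.23), beside 16.2% and 16.6% over all genes. IRT2 (AT4G19680), an iron transporter, fell from 19.1 ± 4.38 to 1.84 ± 1.04 CPM and NAS1 (AT5G04950), which makes the metal chelator nicotianamine, from 22.9 ± 1.44 to 0.975 ± 0.845 CPM. The vacuolar iron transporter homologue AT1G76800 fell from 45.7 ± 1.93 to 7.99 ± 1.37 CPM, and its relative AT1G21140 rose from 10.3 ± 2.91 to 36.1 ± 11.5 CPM. The ferritin FER1 was at 218 CPM in water and 255 CPM in RB 3 h and was not called.

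Abundant chaperones of the endoplasmic reticulum, among them CNX1, BIP2 and SHD, were lower. Of 20 genes of endoplasmic reticulum protein folding, 10 were lower, 2 higher and 8 not called (median log2 fold change -0.58). CNX1 (AT5G61790), a calnexin that holds glycoproteins, stood at 1559, 1303 and 1246 CPM in water and at 471, 496 and 368 CPM in RB 3 h (-1.62, SE 0.18, adjusted p = 1.46e-07). BIP2 (AT5G42020), the lumenal HSP70, fell from 1341 ± 70.6 to 472 ± 66.1 CPM, and SHD (AT4G24190), the lumenal HSP90, from 938 ± 71.2 to 309.6 ± 21.6 CPM. The 2 higher members were BZIP60, a transcription factor of the unfolded protein response, at 2.4 ± 1.28 CPM in water and 13.6 ± 3.73 CPM in RB 3 h, and the co-chaperone ATERDJ3A, at 0.249 ± 0.431 and 13.7 ± 1.93 CPM.

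Some genes of protein synthesis were lower, by smaller folds. Of the 18 cytosolic ribosomal protein genes in the list, 6 were lower and 1 higher (33.3% and 5.56%, median -0.29), beside 16.6% and 16.2% over all genes. The call of the higher one, RPL5B, was lost in 4 of the 6 fits that left out a library. EMB2296 (AT2G18020), a protein of the large subunit, fell from 3900.1 ± 255 to 1895 ± 235 CPM (-1.04, SE 0.20, adjusted p = 0.000299). Of the ribosome assembly genes, 6 of 16 were lower and none higher (median -0.58). FIB2 (AT4G25630), a fibrillarin that acts in ribosomal RNA methylation, fell from 319 ± 41.7 to 123 ± 16.9 CPM and NUC-L1 (AT1G48920), a nucleolin, from 786 ± 23.1 to 414 ± 81.7 CPM. Of the 4 cell division genes abundant enough to be tested, none was called, with log2 fold changes between -0.32 and 0.46.

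The proteasome and autophagy genes were mostly not called. Of 39 subunits of the 26S proteasome, 1 was higher and 5 lower (2.56% and 12.8%, under the shares over all genes, median 0.03). The count of lower genes was 2 or 3 in each fit that left out 1 of the 6 libraries, and that of higher genes 2 without RB 3 h replicate c. AT5G20000, an ATPase of the regulatory particle, rose from 72.8 ± 7.66 to 148 ± 26.5 CPM, while RPN1A (AT2G20580), a scaffold subunit, fell from 231 ± 8.76 to 122 ± 5.10 CPM. None of the 9 autophagy genes tested was called (median 0.10), although APG9 (AT2G31260) was called higher without water replicate a (log2 fold change 1.54, adjusted p = 0.00771). Among proteases and cell death regulators, 4 of 11 were higher and 2 lower (median -0.04, or 0.14 with unscaled library totals). Over all genes tested, 16.2% were called higher and 16.6% lower, so the share of lower members was near that over all genes. BAP2 (AT2G45760), an inhibitor of cell death related to BAP1, rose from 1.33 ± 0.844 to 28.2 ± 2.52 CPM. The type I metacaspases moved in opposite directions, with MC1 (AT1G02170), which promotes cell death, at 168 ± 6.22 CPM against 91.9 ± 6.5 CPM in water and MC2 (AT4G25110), which counters it, at 6.97 ± 3.13 against 20.9 ± 0.674 CPM.

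Phenylpropanoid and flavonoid genes were called in both directions. Of 20 genes, 7 were higher and 6 lower (35.0% and 30.0%, median -0.32), beside 16.2% and 16.6% over all genes. TT4 (AT5G13930), the chalcone synthase that opens the flavonoid branch, stood at 3086, 2806 and 2814 CPM in water and at 655, 724 and 602 CPM in RB 3 h (-2.14, SE 0.19, adjusted p = 6.22e-09). F3H (AT3G51240) fell from 216 ± 11.7 to 57.1 ± 9.87 CPM and TT7 (AT5G07990), the flavonoid 3′-hydroxylase, from 15.7 ± 7.03 to 0.904 ± 0.520 CPM. The entry enzymes of the general pathway and a lignin branch gene were among the higher genes, with PAL1 at 432 ± 46.6 CPM against 202 ± 5.60 CPM in water and CCR2 (AT1G80820), a stress-induced cinnamoyl-CoA reductase, at 107 ± 34.1 against 14.8 ± 0.661 CPM.

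Genes of the hormone pathways were called in part, beside 16.2% called higher and 16.6% called lower over all genes tested. For ethylene, 4 of 10 were higher and none lower (median 1.2), among them the receptor ETR2 (AT3G23150), from 37.3 ± 7.58 to 88.5 ± 6.17 CPM, and the receptor-pathway repressor EBF1 (AT2G25490), from 17.9 ± 4.34 to 44.3 ± 5.29 CPM. For abscisic acid, 4 of 10 were higher and 1 lower (median 0.53). The higher genes included the phosphatases ABI1 (AT4G26080), from 103 ± 21.0 to 302 ± 40.6 CPM, and HAI1 (AT5G59220), from 4.79 ± 3.17 to 19.3 ± 3.17 CPM, while the dehydration reporter LTI78 was at 58.6 and 46.9 CPM and not called. The 1 lower gene, ABF3, lost its call in 4 of the 6 fits that left out a library.

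For auxin, 7 of 22 were higher and 2 lower (31.8% and 9.09%), beside 16.2% and 16.6% over all genes. The median was -0.01, or 0.01 with size factor scaling and 0.16 with unscaled library totals. The importer LAX3 (AT1G77690) fell from 191 ± 5.27 to 65.3 ± 6.43 CPM, the transporter ABCB4 (AT2G47000) rose from 47.7 ± 7.93 to 138 ± 9.85 CPM, and the PIN3, PIN4 and PIN7 carriers were not called. For jasmonate, 6 of 25 were higher and 1 lower (24.0% and 4%, median 0.60). The count of higher genes was 2 without water replicate a or RB 3 h replicate c and 3 without water replicate c, and that of lower genes 2 without water replicate b or c. MYC2 (AT1G32640), its master transcription factor, rose from 20.3 ± 8.26 to 57.6 ± 4.12 CPM, and AOC4 (AT1G13280), an allene oxide cyclase, fell from 285 ± 15.6 to 165 ± 7.51 CPM. The wound marker VSP1 was not called, at 29.4 CPM in water and 15.8 CPM in RB 3 h. For salicylate, immunity and MAP kinases, 6 of 15 were higher and 1 lower (median 0.67). The higher ones included MKK9 (AT1G73500), a MAP kinase kinase, from 133 ± 18.7 to 781 ± 48.8 CPM, and the immune regulators PAD4 (AT3G52430), from 1.86 ± 0.466 to 30.2 ± 8.70 CPM, and CBP60G (AT5G26920), from 3.29 ± 1.32 to 21.8 ± 7.32 CPM. The 1 lower gene, NP1, lost its call in each fit that left out 1 of the 6 libraries except that without water replicate c.

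Among core hypoxia genes, 8 of 18 were higher and none lower (median 0.91). HB1 (AT2G16060), a haemoglobin that scavenges nitric oxide, rose from 50.2 ± 4.03 to 221 ± 33.0 CPM, and ERF71 (AT2G47520) from 3 counts over the water libraries to 52.3 ± 6.95 CPM, a ratio of 70.4 (95% exact counting interval 23.9 to 342.9). The fermentation gene ADH1 was not called, at 7.19 CPM in water and 13.5 CPM in RB 3 h. Of 12 clock genes, 1 was higher and 4 lower (8.33% and 33.3%, median -0.27), beside 16.2% and 16.6% over all genes. GRP7 (AT2G21660) and CCR1 (AT4G39260), both glycine-rich RNA-binding proteins that cycle with the day, fell from 4224 ± 334 to 2290.5 ± 276 CPM and from 2564 ± 112 to 1228 ± 161 CPM. The labels do not state the clock time at sampling, which cannot be told apart from treatment.

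Markers of other root cell types were mostly not called. Of 8 endodermis markers, 2 were lower and none higher (median -0.14, or 0.03 with unscaled library totals), with CASP1 (AT2G36100), a Casparian strip protein, at 461 ± 15.8 CPM in water and 187 ± 7.71 CPM in RB 3 h. The summed level of the 10 endodermis markers in the table was 1148, 1115 and 1098 CPM in water and 543, 708 and 682 CPM in RB 3 h, 0.575-fold and with no overlap, and its part in the other results was not tested. None of the 4 phloem markers was called (median 0.03), SEOR1 being at 60.5 ± 11.6 and 63.5 ± 10.5 CPM, and the root cap marker SMB was not called. Of the 2 xylem markers tested, XCP1 was called higher (log2 fold change 1.03, adjusted p = 0.0281), and its call was lost in 5 of the 6 fits that left out a library.

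Most markers of shoot green tissue were lower in RB 3 h. Of 14 tested, 9 were lower and none higher (median -1.14), and the summed level of the 20 in the table was 568, 579 and 842 CPM in water and 348, 371 and 333 CPM in RB 3 h. The count of lower genes was 4 without water replicate c and 5 without RB 3 h replicate a. PSBO1 (AT5G66570), a photosystem II protein, fell from 129 ± 25 to 37.9 ± 4.12 CPM, whereas LHCB6 was at 85.9 and 82.5 CPM. The part of shoot tissue in the other results was not tested.

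Against RB 2 h, few genes differed. Only 22 of 9891 (0.222%) were called, 6 higher (0.0607%) and 16 lower (0.162%), with 842 at an unadjusted p under 0.05 and CPM ranges that did not overlap in 1316 (13.3%). HSP90.1 stood at 102, 108 and 159 CPM in RB 2 h and at 330.1, 271 and 241 CPM in RB 3 h (1.19, SE 0.24, adjusted p = 0.0382). RD28 was at 114, 113 and 81.3 CPM in RB 2 h and at 33.7, 42.8 and 48.0 CPM in RB 3 h (-1.32, SE 0.20, adjusted p = 0.00849). The 3 h values thus lay further from water than the 2 h values in both genes. The count rested on single libraries. It was 0 without RB 2 h replicate b, RB 3 h replicate a or RB 3 h replicate b, 4 without RB 3 h replicate c, 9 without RB 2 h replicate a and 46 without RB 2 h replicate c. A gene that was not called here is not shown to be unchanged.

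Against RB 1 h, 1755 genes (17.7%) were called, 930 higher (9.4%) and 825 lower (8.34%). These 2 groups differ in time alone by the labels, and the comparison shares its RB 3 h libraries with that against water. Without RB 3 h replicate a, the deepest library, 1140 were called. UGT75B1 was at 0.898, 2.95 and 2.49 CPM in RB 1 h and at 131, 58.4 and 135 CPM in RB 2 h (log2 fold change of RB 3 h over RB 1 h 6.67, SE 0.41, adjusted p = 1.15e-10). NRT2:1 was at 18.9, 19.7 and 7.98 CPM in RB 1 h and at 1.01, 0 and 0.404 CPM in RB 2 h, against 145 ± 6.58 CPM in water. EXT6 was still at 10.8, 13.8 and 21.4 CPM in RB 1 h, against 0 to 0.504 CPM in RB 3 h.

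**Figure D4:**
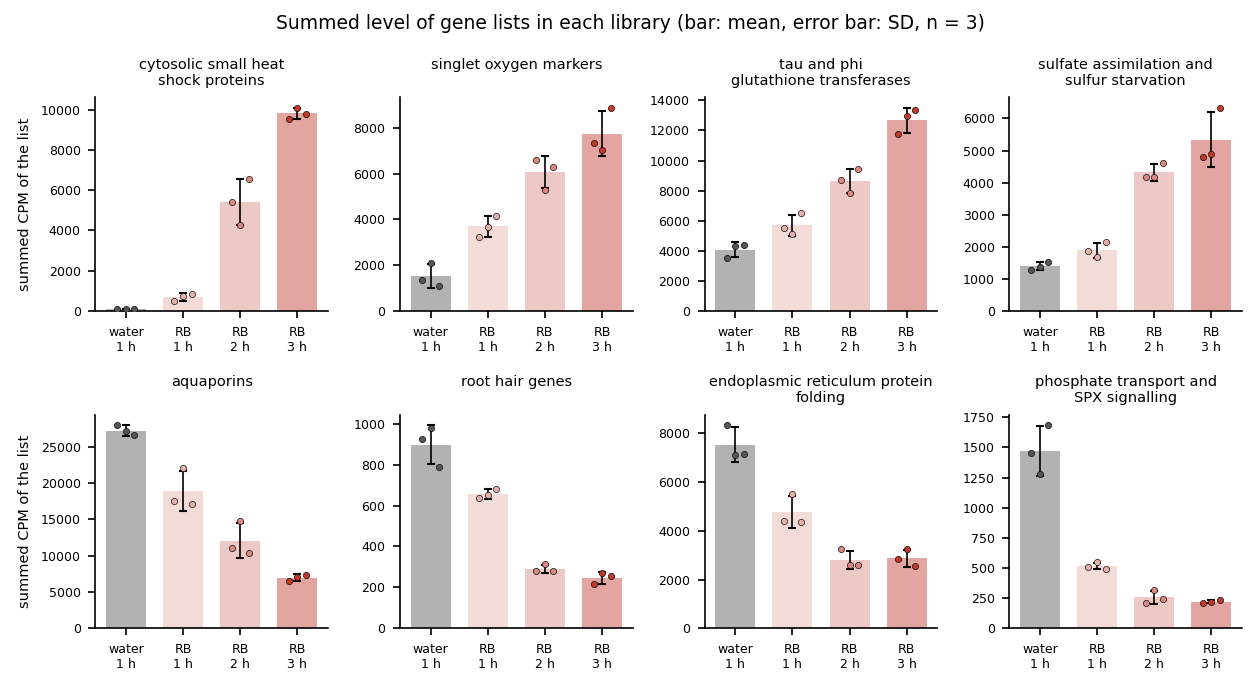
Summed CPM of the genes of 8 lists in water 1 h, RB 1 h, RB 2 h and RB 3 h; bars are means, error bars the SD over 3 libraries and points the single libraries. The cytosolic small heat shock proteins go from 95.7 CPM in water to 9818 CPM in RB 3 h, and the phosphate genes from 1472 to 221 CPM, of which PHT1;1 alone made up 1213 and 76.7 CPM.

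The summed levels of lists in the 4 groups are given side by side. The cytosolic small heat shock proteins summed to 95.7 ± 4.56 CPM in water, 700.1 ± 184 CPM in RB 1 h, 5431 ± 1145 CPM in RB 2 h and 9818 ± 279 CPM in RB 3 h. The singlet oxygen markers were at 1519 ± 517, 3694 ± 462, 6070.0 ± 689 and 7753 ± 995 CPM in the same order. The phosphate genes stood at 1472 ± 207, 517 ± 27.0, 258 ± 55.5 and 221 ± 14.8 CPM. That sum was carried by PHT1;1 and PHT1;4, and the other 8 members together were at 138 ± 8.63, 157 ± 12.3, 140.0 ± 23.7 and 131 ± 14.4 CPM. Root hair genes, in contrast, were at 898 ± 96.7, 657 ± 24.6, 291 ± 18.5 and 247 ± 28.0 CPM. The sums themselves were not tested.

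The authors' deposited table marks the genes that passed their threshold in the same comparisons. For RB 3 h against water it marks 1991 genes, 1124 higher and 867 lower in RB 3 h. Of the 2137 genes called here with at least a 2-fold change, 1931 carry the mark in the authors' deposited table, which is 97% of the marked genes and 90.4% of those called here, with 0 of opposite sign. For RB 3 h against RB 2 h the authors' deposited table marks 38 genes, of which 19 were among the 21 called here at that fold. Both results come from the same counts.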

How the data were processed

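Root RNA was measured in 15 libraries, 3 in each of 5 groups, grouped by the treatment and time in the labels. Where nothing names separate plants beyond the pooled seedlings, p-values measure the spread between these libraries. The deposited table gives whole-number read counts per gene and library for 14391 genes. Bcl2fastq, cutadapt, STAR 2.4.2a, HTSeq and DESeq2 are named in the submitters' processing notes. The genome build, annotation, counting strand and the handling of molecular identifiers are not stated, so overlapping and antisense genes cannot be separated, and counting intervals cover counting error only. The authors' deposited table also holds log2 fold changes, adjusted p-values and a yes or no mark of genes passing their threshold. Its marks were used, and 30 further per-library columns were not.

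The tests used edgeR 4.0.16 (R 4.3.3). filterByExpr over the 5 groups kept 9891 genes and set 4500 aside. All 15 libraries entered 1 fit with TMM scaling and robust quasi-likelihood dispersions, and 2-sided F tests compared RB 3 h with water, RB 2 h and RB 1 h, with Benjamini-Hochberg adjustment over all genes tested and a threshold of 0.05. The SE of a log2 fold change is its size over the square root of F. A fold against 0 counts uses a floor of 3 counts over the group, and with 1 to 3 counts a ratio is given with a 95% exact binomial interval. The code was tested on simulated data. Alternatives were size factor scaling, DESeq2 1.42.0, no filter, only the libraries of the groups compared, a replicate block, leaving out each library, dispersions that were not robust, a test against a 2-fold change, and, added after seeing the data, no further scaling and the fit without 2 libraries, RB 1 h replicate b and RB 2 h replicate a, which lay apart on component 3. Limma 3.58.1 is a dependency of edgeR.

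Genes were named by a rule. It took the 10 highest and 10 lowest log2 fold changes against water among called genes that carry a symbol, average 10 or more counts and have CPM ranges that did not overlap, the 6 largest differences in CPM in each direction, up to 4 called members of each of 42 lists, and the 5 highest and 5 lowest genes against RB 2 h and RB 1 h. Other genes named beside them were chosen after their values were seen, as were the members of families. The comparison, the lists and the rule were chosen with earlier results of these data known. The reference annotation held 14356 of the loci and was used for names only. Replicate letters were not taken to pair the libraries, since same-letter correlations ran from -0.135 to 0.00376 between RB 3 h and water and were not all over 0.1 in any comparison. Promoter and protein sequences were not analysed here.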

Additional observations from a re-analysis of the deposited data

Results flagged for a closer look

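Differences between time points under the same dye treatment drew a closer look, because the test compared 2 times directly. Between RB 3 h and RB 2 h, 22 genes were called by edgeR's quasi-likelihood test with Benjamini-Hochberg adjustment, and between RB 3 h and RB 1 h, 1755. All values below are log2 fold changes of RB 3 h over the earlier time.

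Against RB 2 h, the higher genes were LAC1 (1.03), a laccase, GAD4 (1.39), a glutamate decarboxylase, PAD3 (1.27), of camalexin synthesis, CYP81D8 (1.02) and HSP90.1 (1.19). GAD4 stood at 33.2, 20 and 25.1 CPM in RB 2 h and at 59.2, 56.9 and 86.0 CPM in RB 3 h. The lower genes were LHB1B2 (-1.42), a light-harvesting protein, RD28 (-1.32), GXM2 (-1.39), a glucuronoxylan methyltransferase, SEN1 (-1.30) and BXL1 (-1.41), a xylosidase. SEN1, a gene of dark-induced senescence, was at 6.12 ± 2.31 CPM in water, at 229, 151 and 138 CPM in RB 2 h and at 87.8, 61.0 and 55.9 CPM in RB 3 h. BXL1 was at 44.4 ± 5.08 CPM in water and 37.8 ± 4.42 CPM in RB 3 h, with 90.7, 129 and 82.9 CPM in RB 2 h. In each of these 10 genes, the call was lost when RB 2 h replicate b or RB 3 h replicate a was left out.

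Against RB 1 h, the higher genes were UGT75B1 (6.67), UGT74E2 (7.90), GSTU11 (5.57), DOGT1 (6.39), a glucosyltransferase, and ATHSP22.0 (8.97, fitted against a group with no counts and therefore no bound). DOGT1 stood at 0.299, 0.985 and 0 CPM in RB 1 h and at 39.4, 18.6 and 35.1 CPM in RB 3 h. The lower genes were NRT2:1 (-5.15) and 4 genes of wall glycoproteins, EXT6 (-6.38), HRGP1 (-5.31), EXT13 (-5.25) and EXT11 (-5.35). HRGP1 was at 21.6, 25.6 and 35.9 CPM in RB 1 h, at 2.02, 8.28 and 0.404 CPM in RB 2 h and at 0.213, 1.01 and 1.43 CPM in RB 3 h. All 10 calls against RB 1 h were kept in each of the 15 settings tried.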

How the results depend on the processing

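For RB 3 h against water, 3238 genes were called and the alternatives gave 2985 to 3795 calls apart from those below, with 0 genes called in the opposite direction in any setting. Leaving out single libraries gave 2486 (without water replicate c) to 2778 calls (without RB 3 h replicate b). A test against a 2-fold change gave 937, since it asks for more than a difference from 0. With no further scaling, the calls were 3255, of which 62.3% were higher in place of 49.4%. Against RB 2 h, 22 were called, 100 with DESeq2 (adjusted p not given for 3260 genes), 42 with no filter, 0 against a 2-fold change and 0 to 46 leaving out single libraries. The cause of these differences was not tested. Against RB 1 h, 1755 were called, 358 against a 2-fold change and 1140 to 1588 leaving out single libraries. Same-letter correlations were -0.229 to -0.0509 between RB 3 h and RB 2 h and 0.0533 to 0.247 between RB 3 h and RB 1 h, so no comparison had all 3 pairs over 0.1. With a replicate block the calls were 2985 against water, 9 against RB 2 h and 1545 against RB 1 h. Of the 167 genes named and called against water, 120 kept their call in every setting that tested them (15 settings, or 14 for HSP21), 47 lost it in some and 0 changed direction; of the 10 against RB 2 h none kept it in all 15. Depth limits rare transcripts, as 1 count was up to 1.19 CPM in water.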

Other observations

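Gene families, named by their annotated products and chosen after the values were seen, also differed between RB 3 h and water. Members of the lists above were not left out of the families, so the counts of lists and families are not independent. Of 28 extensins and related proline-rich proteins tested, 22 were lower and 0 higher (median log2 fold change -3.15, against 0.01 over all genes, of which 16.6% were called lower). Of 47 class III peroxidases, 12 were higher and 21 lower (25.5% and 44.7%). AT2G37130, described above, and AT5G64120, at 492 ± 74.9 CPM in water and 88.9 ± 22.2 CPM in RB 3 h, were among the lower ones. Of 34 pectin methylesterases and their inhibitors, 19 were lower and 3 higher (55.9% and 8.82%), with AT4G25250 falling from 70.4 ± 4.37 to 1.19 ± 1.26 CPM. Of 39 lipid transfer proteins, 19 were lower and 4 higher (48.7% and 10.3%), with AT4G12520 falling from 574 ± 35.3 to 24.8 ± 5.79 CPM. Of 64 genes with calmodulin or EF-hand words in their products, 21 were higher and 4 lower (32.8% and 6.25%), beside 16.2% called higher over all genes. They include the calmodulin-binding protein EDA39, so not all are calcium-binding proteins. CML37 (AT5G42380) rose from 6.34 ± 4.02 to 208 ± 11.5 CPM. Among 15 disease resistance genes of the TIR and NBS classes, 7 were higher and 1 lower (46.7% and 6.67%), and AT1G66090 rose from 0.896 ± 0.790 to 58.6 ± 3.96 CPM. Of 220 genes picked by ribosomal protein words in their products, 53 were lower and 10 higher (24.1% and 4.55%, median -0.28). The words do not separate proteins of the cytosolic subunits from those of organelles.

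A few neighbouring genes were called in the same direction in unbroken runs. The longest held 8 lower genes on chromosome 4, from AT4G12450 through AZI1, EARLI1 and AT4G12520 to AIR1, most of them lipid transfer proteins. On chromosome 2, 6 higher genes in a row were GSTU7, GSTU5, GSTU4, GSTU1, the small heat shock protein AT2G29500 and AT2G29510. On chromosome 1, the methyltransferases IGMT1, IGMT3, IGMT2 and IGMT4 lay beside AT1G21140, all 5 higher. How many reads such similar neighbours share was not tested. There were 148 genes with 0 counts in all water libraries and at least 1 in every RB 3 h library, and 14 with the reverse pattern, at unequal depths of the 2 groups. AT5G24640, of unknown function, had 0 counts in water and 651 in RB 3 h, at least 105.7-fold higher. AT4G08410, an extensin-like gene, had 117 counts in water and 0 in RB 3 h, at least 80.1-fold lower.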
